A study of Oryza sativa with 10 samples.

Results

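A set of 1245 accessible chromatin regions of the rice genome was called in seedlings after 8 h of light and neither in the dark nor after 24 h of light. They were found by merging all peaks that overlapped by at least 1 bp over 10 ATAC-seq peak lists into sites, and by keeping the sites with a peak in both 8 h lists and in none of the 4 lists of dark and 24 h. These 8 h-only sites made up 3.73% of the 33382 merged sites. The 8 h, dark and 24 h calls chose them, so every value from those lists is given below as a description with no test. Calls in the ABA and IAA lists were no condition of the choice, but their peaks entered the merging and could join neighbouring peaks into one site. With sites merged over the dark and light lists alone there were 1257 members.

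ATAC-seq uses the Tn5 transposase, which inserts sequencing adapters where DNA is not covered by nucleosomes, and its peaks mark promoters, enhancers and other elements that regulatory proteins can reach. A seedling that germinates in darkness lives on its seed reserves and elongates, and light, sensed by phytochromes and cryptochromes, switches it to greening, chloroplast biogenesis and leaf growth. Abscisic acid (ABA) is the hormone of seed dormancy and drought, and indole-3-acetic acid (IAA) is the main natural auxin, which drives cell elongation and organ growth.

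Whole seedlings of the indica cultivar YD6 were used in all 5 groups, and the peaks were placed on MSU7.0, the genome of a japonica rice. The dark group was germinated in darkness, the 8 h and 24 h groups were germinated alike and then kept in light for 8 h or 24 h, and the ABA and IAA groups were sprayed with the hormone in DMSO late in the same 24 h of light. A DMSO spray was not analysed here, so hormone and spray cannot be told apart. A whole seedling holds many cell types, and a site open in fewer cells cannot be told apart from a site less open in each cell.

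Each group had 2 peak lists, described as biological replicates, but their values did not behave as 2 independent measurements. Tags, the sequenced ends piled up over a peak summit, were recovered from the deposited peak values as whole numbers for all 200537 peaks. Within each of the 5 groups the tags of both lists at shared sites differed far less than counting noise, with a chi-square of 0.0114 to 0.0872 per site, against 0.571 to 1.05 over the 40 pairs of lists from different groups. The summits fell on the same base at 39.1 to 81.3% of shared sites within a group and at 2.87 to 3.74% between groups. Each group thus gives 1 sample here, and no test between groups was possible. The lists of 8 h, 24 h and IAA had nearly the same relative library size, 0.692, 0.701 and 0.690 on average, while that of dark was 0.525 and that of ABA 0.908. Total read depth is unknown, since peak lists do not give it.

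Most 8 h-only sites were low and narrow. The mean of both 8 h lists had a median of 20.5 tags, with quartiles of 18 and 22.5 and a range of 13.5 to 49. The fold over background that the authors deposited had a median of 3.68, and the −log10 q-value had a median of 5.19, which placed the typical member above only 21.6% of the peaks of its own list. In the upper 50% of the 8 h lists by −log10 q there were 141 members (11.3%), and in the upper 25% there were 7. The median width was 169 bp, against 232 bp over all sites, and 14 members reached 500 bp. Low peaks near the threshold therefore formed the bulk of the set, with a short tail of tall ones.

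For scale, 2065 sites, or 6.19% of all sites, were called in both 8 h lists and in no dark list, and 3094, or 9.27%, in both 8 h lists and in no 24 h list. The 8 h-only sites are those that met both conditions.

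The strongest member lay at chr3:26960248-26961943, where 49 tags were counted in each 8 h list. Its background set the call limit at 14 tags in the dark lists and 17 tags at 24 h, and none of the other 8 lists called it. The second, at chr3:12630406-12631323, held 35 and 38 tags. The third, at chr3:26956383-26959090, held 38 and 33 tags and was the widest of all members with 2708 bp. All of these were broad, and none was called with either hormone.

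The next members by −log10 q were narrower, and several of them were also called with IAA. At chr2:185138-185398 the 8 h lists held 32 and 36 tags, and the IAA lists 19 and 22. At chr2:33915685-33915857 there were 32 and 34 tags at 8 h and 28 in each IAA list. The IAA lists were below the 8 h lists at both. The sites chr11:20188893-20189220 (30 and 33 tags) and chr4:34244369-34244862 (30 and 31 tags) had no hormone call. At chr4:24310332-24310565 each 8 h list held 30 tags and each IAA list 24, at chr5:366259-366410 the values were 30 and 30 against 23 and 22, and at chr5:23715756-23715958 they were 30 and 30 against 19 and 17. The last of the 12 strongest were chr11:20182689-20183138, with 31 and 34 tags, and chr7:26952258-26952366, with 29 and 30, both called at 8 h alone. Of these 12 sites, 5 were thus called in both IAA lists and none with ABA. They were picked for their 8 h values, so their order against IAA is a description only.

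**Figure D1:**
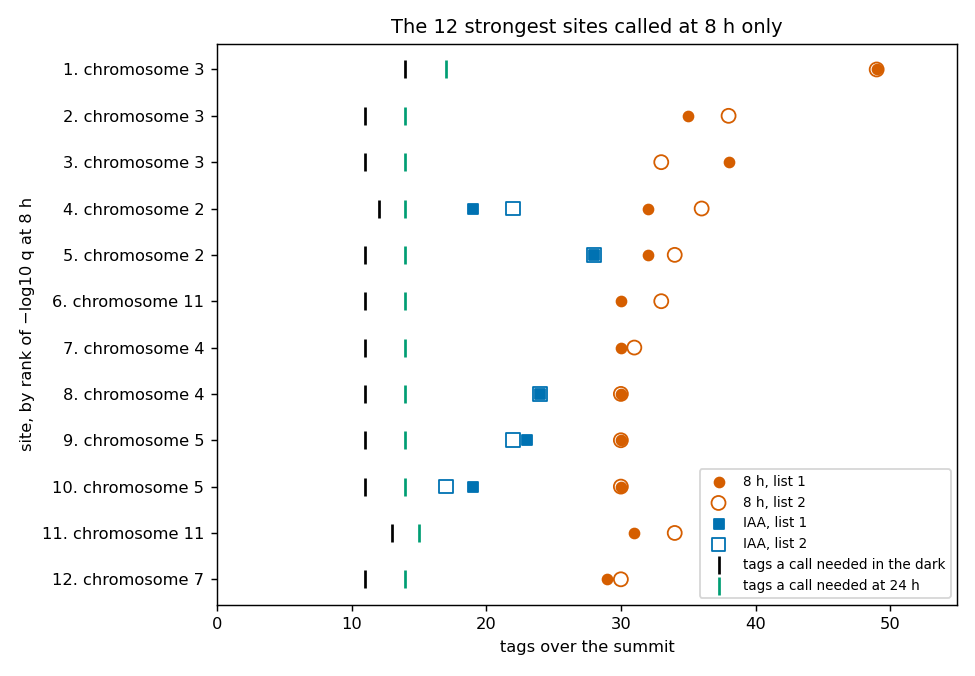
Tags over the summit (x axis) at the 12 members of highest −log10 q at 8 h (y axis, by rank), with filled and open symbols for the first and second list of 8 h and of IAA. Ticks mark the tags that a call needed in the dark and at 24 h at the mean 8 h background of that site. The 8 h values lie between 29 and 49 tags, to the right of every tick, and where IAA symbols are drawn they lie left of the 8 h symbols.

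How far a site stood above the other lists was read from the call limit. It is the fewest tags that would have reached the lowest deposited −log10 p-value of a list at the mean 8 h background of that site. The limit was 11 tags in the dark at the median member and 14 at 24 h. At that background, a site without a call held fewer tags than this limit, or reached it over less than 100 bp. The smallest width in every list was 100 bp. Where a list had a higher background at the site, more tags than the limit could go without a call. The 8 h tags were 1.67 times the dark limit at the median (range 1.17 to 3.5) and 1.32 times the 24 h limit (0.944 to 2.88). After scaling to library size, 1130 members would have reached the limits of dark and 24 h at their 8 h height, but only 195 would have stood at 1.5 times these limits and 11 at 2 times. These counts depended on the scaling, with 245 and 13 when scaled by the sites that all lists share and 355 and 20 without scaling. Against the dark limit alone 195, 718 and 923 members reached 1.5 times under these scalings in the same order, and against the 24 h limit alone 356, 245 and 355. A gain by 8 h and a loss by 24 h is thus a statement about calls, and for most members the lists cannot show by how much accessibility differed between 8 h and 24 h.

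**Figure D2:**
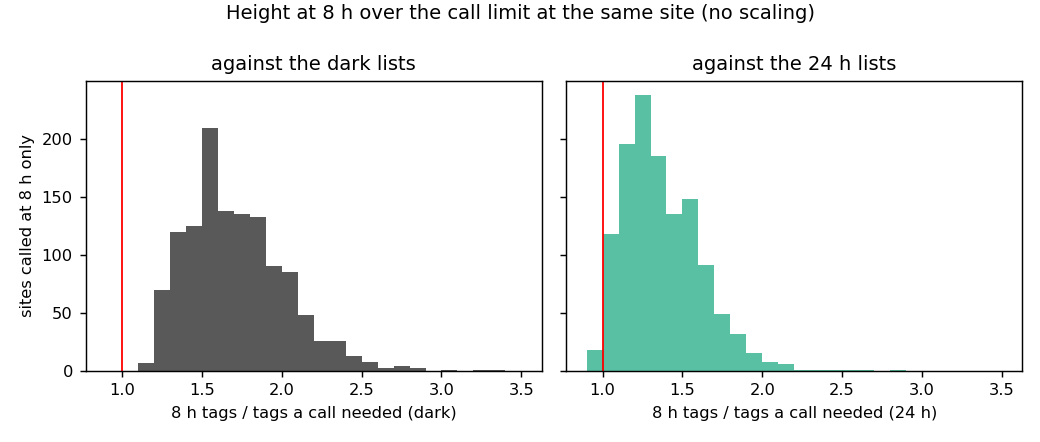
Number of members (y axis) by the ratio of their mean 8 h tags to the call limit at the mean 8 h background of the same site (x axis, unscaled) in the dark lists (left) and in the 24 h lists (right), with a red line at 1. The median is 1.67 against the dark and 1.32 against 24 h, and few members pass 2 in the right panel.

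The 3 weakest members show the lower edge. At chr7:26401829-26402014 the 8 h lists held 17 tags each against a 24 h limit of 18. At chr1:35798641-35798826 they held 18 and 17 against 18, and at chr7:20732528-20733062 they held 22 and 23 against 23. At each of them the tags of at least one 8 h list were under the 24 h limit.

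Just outside the rule lay 563 sites called in both 8 h lists and in a single list of dark or 24 h, with a median of 21 tags at 8 h and of 17 in that list. The strongest was chr4:27421652-27421863, with 36 and 35 tags at 8 h, 20 in the first 24 h list and 33 in each IAA list. At chr10:19913980-19914331 there were 30 and 33 tags at 8 h, 18 in the first 24 h list and 28 and 25 with IAA. At chr1:42311875-42312137 there were 31 and 33 tags at 8 h, 14 in the first dark list and 27 and 25 with IAA. Their 8 h tags lay within the range of the 12 strongest members, and a call of 14 to 20 tags in one list kept them out. A further 809 sites were called in only one of the 8 h lists and in no list of dark or 24 h.

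Both IAA lists called 338 of 1245 (27.1%, 95% Wilson interval 24.8 to 29.7%), a single IAA list called 142, and 765 had no IAA call. Over all sites the share in both IAA lists was 62.9%, over all sites of both 8 h lists it was 84.1%, and over those of them without a 24 h call it was 44.7%. Of the sites called at 8 h and 24 h but not in the dark, 65.4% were called with IAA (61.4 to 69.1%, 583 sites), and of those called in the dark and at 8 h but not at 24 h, 59.4% (56.9 to 61.9%, 1523 sites). The 24 h-only sites stood at 36.2% (32.6 to 40.0%, 641 sites) and the dark-only sites at 25.3% (24.0 to 26.7%, 3927 sites). The share of the 8 h-only sites was thus below that of every other class named here except the dark-only sites, whose interval overlapped theirs. Against the 24 h-only sites the intervals overlapped in other settings. With lists of equal length the shares were 21.5% (19.3 to 23.9%) and 24.3% (21.6 to 27.2%). With a −log10 q of at least 5 in every list they were 28.8% (26.3 to 31.4%) and 33.5% (29.6 to 37.6%). These intervals cover counting error only, and the differences between classes were not tested. The classes with 24 h calls share 24 h of light with the IAA and ABA seedlings.

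The 8 h-only share was also below that of sites called at 8 h and 24 h at matched 8 h height. Among peaks of 13 to under 20 tags at 8 h, both IAA lists called 20.3% of the 8 h-only sites and 59.4% of the sites called at 8 h and 24 h. From 20 to under 25 tags the shares were 31.7 and 66.7%, and from 25 to under 50 tags 35.6 and 69.5%. Sites of dark and 8 h stood at 51.2, 59.8 and 69.8% in these bands. The IAA share was higher among taller members, and it was below that of both comparison classes in each band. Each comparison class had to be called in a further group, 24 h or dark, where members had to have no call. Matching on 8 h height does not remove this difference.

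The tags of IAA and 8 h can be set side by side only at sites called in both. At equal background a call needed nearly the same number of tags in each. At these 338 sites the IAA lists had a median of 20.5 tags, and the ratio of IAA to 8 h tags had a median of 1 with a range of 0.588 to 2. The IAA summit was within 50 bp of the 8 h summit at 241 of them (71.3%), at a median distance of 25.5 bp. The share within 50 bp was 76.1% at the 381 sites called at 8 h, 24 h and with IAA but not in the dark, and 78.5% at the 905 sites called in the dark, at 8 h and with IAA but not at 24 h.

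ABA seedlings held a call at very few 8 h-only sites. Both ABA lists called 35 of 1245 (2.81%, 2.03 to 3.88%), where the share was 36.6% over all sites, 56% over all sites of both 8 h lists and 9.5% over those of them without a 24 h call. The share was 23.8% (20.6 to 27.5%) among sites called at 8 h and 24 h, 15.6% (13.8 to 17.5%) among those of dark and 8 h, 11.4% (9.16 to 14.1%) among the 24 h-only sites and 9.32% (8.45 to 10.3%) among the dark-only sites. The 8 h-only share lay below all of these, with no overlap of the intervals. It was low in every height band, at 2.36, 3.58 and 1.84%, against 18.7, 20.8 and 31.1% at sites called at 8 h and 24 h. The limit given above for matched height holds here too.

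The ABA lists were also the shortest, with 12969 peaks on average against 20212 at 8 h, and a call at the lowest background needed 16 tags there against 13 or 14 at 8 h. Scaled by the tags at sites that all lists share, 623 members would have reached the ABA limit, and 18 of those (2.89%) were called. By library size all 1245 would have reached it, with 35 called (2.81%). Without scaling 959 would have reached it, with 28 called (2.92%). When every list was shortened to the length of the shortest one, the set so defined held 1207 sites, and its ABA share was 15.1%. In that setting the share was 33.6% among 24 h-only sites, 30.2% among dark-only sites and 45.6% among sites called at 8 h and 24 h, so the 8 h-only sites were still the lowest while the level itself moved by more than 1.5 times.

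**Figure D3:**
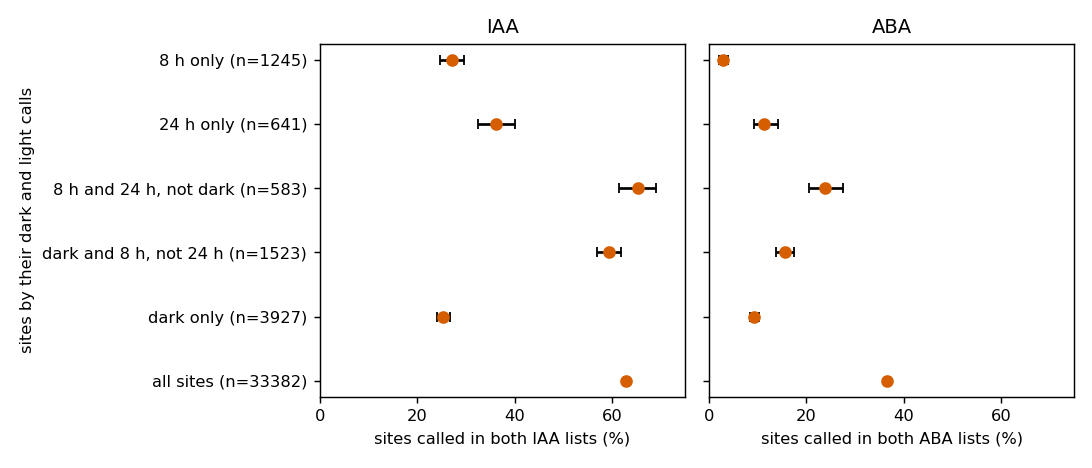
Percent of sites called in both IAA lists (left) and in both ABA lists (right), for sites grouped by their dark, 8 h and 24 h calls (y axis, with the number of sites), with 95% Wilson intervals as bars. The 8 h-only sites sit at 27.1% for IAA, near the dark-only sites, and at 2.81% for ABA, left of every other class.

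The hormone calls divided the members into 752 with no call in any hormone list, 312 in both IAA lists and no ABA list, 9 in both ABA lists and no IAA list, 21 in both lists of both, and 151 with a call in a single list of a hormone. The 3 strongest members with both hormones were chr4:35020045-35020361 (27 and 29 tags at 8 h, 25 and 24 with ABA, 22 and 25 with IAA), chr2:31523264-31523663 (24 and 26, 20 and 20, 20 and 23) and chr11:13115603-13115839 (21 and 25, 27 and 26, 18 and 20). In unscaled tags the 8 h lists were the highest at the first of them, and the ABA lists at the last. The 3 strongest with ABA alone were chr10:18903649-18903793 (25 and 24 tags at 8 h, 23 in each ABA list), chr11:20547488-20547683 (23 and 22, against 17 in each) and chr1:37478080-37478228 (24 and 25, against 21 in each). At these 3 sites with ABA alone the ABA peak was no taller than that of 8 h in unscaled tags, but they were picked by their 8 h values. Over all 35 members called in both ABA lists, ABA tags were above 8 h tags at 20 (57.1%). The ratio of ABA to 8 h tags there had a median of 1.06. Scaling can change the order of ABA and 8 h where their tags are close.

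A pair of members had far more tags with ABA than at 8 h, and both were singled out after their values were seen. At chr4:20688157-20688510 the 8 h lists held 16 tags each and the ABA lists 71 and 68, with summits 31 bp apart, and no call was made with IAA. At chr1:39416443-39417684 the 8 h lists held 16 and 15 tags and the ABA lists 68 each, but the ABA summit lay 682 bp from that of 8 h, so that separate peaks had been merged into one site. At the remaining members called in both ABA lists the tags with ABA were at most 33.

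The 8 h-only sites had a higher share of close neighbours than sites at large. Another site lay within 1 kb of 553 members (44.4%, 41.7 to 47.2%), against 36.8% of all sites, and within 500 bp of 31.2% against 23.1%. The share within 1 kb was much the same at sites called at 8 h and 24 h (44.4%) and at 24 h-only sites (46.2%), and lower at sites of dark and 8 h (34.3%) and at dark-only sites (30.5%). In this setting proximity was thus shared with the other sites that had no dark call and was not particular to the 8 h-only set. With a −log10 q of at least 5 in every list the 8 h-only share was 33.3%, against 29.0% of all sites. Sites called at 8 h and 24 h then stood at 28.9% and 24 h-only sites at 32.3%. With all lists shortened to equal length the 8 h-only share was 20.8%, below the 23.2% of all sites. Those other classes then stood at 24.2 and 27.3%.

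Members close to another site had a lower IAA share, 18.8% (15.8 to 22.3%) against 33.8% (30.4 to 37.4%) of the 692 members with no site within 1 kb, although their median 8 h tags were 20 and 20.5. The same split was not made over all sites or in other classes, so it cannot be called particular to the members. IAA peaks also entered the merging. One that joined a member to a close site called in the dark or at 24 h would have removed that member. The effect of this on the split was not tested. Of the 553 nearest neighbours, 177 were sites called in all lists of dark, 8 h and 24 h, 52 were other members, 44 were dark-only sites and 11 were 24 h-only sites. The others had mixed calls.

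Among constitutive sites, those called in all 6 dark and light lists, the ones next to members had higher ratios of 8 h to dark and 8 h to 24 h tags than constitutive sites at large. At the 174 that were the nearest neighbour of a member and within 1 kb of it, the ratio of 8 h to dark tags had a median of 1.25 (quartiles 1.10 and 1.46), and 81.0% were above 1. At all constitutive sites with a neighbour within 1 kb the median was 1.09. The ratio of 8 h to 24 h tags had a median of 1.11 next to members, 1.02 at all constitutive sites with a neighbour, and 0.975 next to 24 h-only sites. The ratios are unscaled and come from the same 8 h lists that chose the members, so they carry no test. Scaling moves all constitutive sites alike but can turn the direction against the dark. By library size the median of 8 h over dark next to members was 0.951, against 0.827 at all constitutive sites with a neighbour, and by shared sites it was 1.20 against 1.04. That of 8 h over 24 h next to members was 1.12 by library size and 1.07 by shared sites.

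These unscaled ratios were higher near members than far from them, though not lower at each step of distance. The median of 8 h over dark tags was 1.24 at the 149 constitutive sites within 0.5 kb of a member, 1.26 at 0.5 to 1 kb, 1.22 at 1 to 2 kb, 1.15 at 2 to 5 kb, 1.18 at 5 to 10 kb, 1.15 at 10 to 50 kb and 1.04 beyond 50 kb. The median of 8 h over 24 h tags was 1.11, 1.08, 1.09, 1.06, 1.07, 1.06 and 1.00 over the same steps. Within 0.5 kb of dark-only sites the ratio of 8 h to dark was 1.02, and within 0.5 kb of 24 h-only sites it was 1.14, with 0.959 for 8 h to 24 h. Within 0.5 kb of sites called at 8 h and 24 h but not in the dark the ratios were 1.23 and 1.06, near those of the members, so the pattern was not particular to 8 h-only sites.

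**Figure D4:**
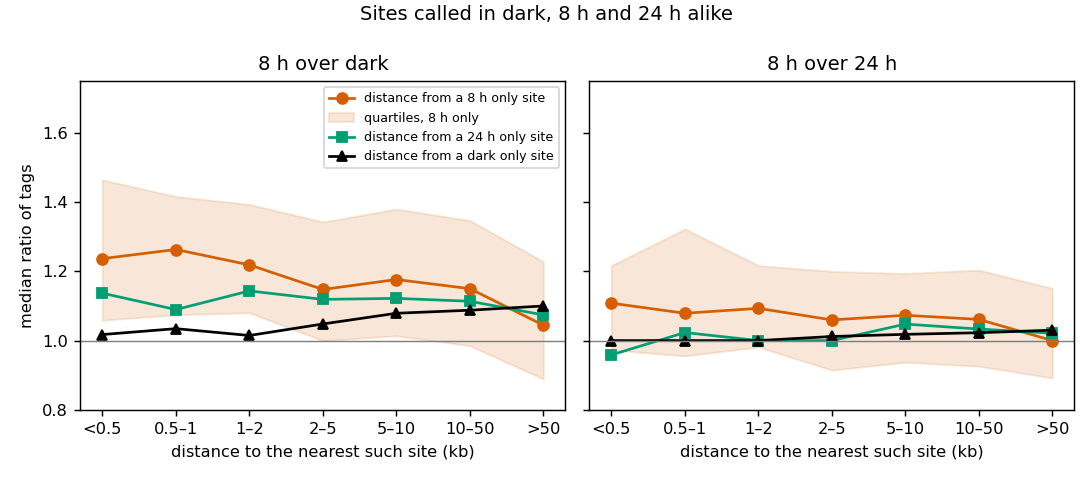
Median ratio of tags at sites called in all dark, 8 h and 24 h lists (y axis, unscaled) by their distance in kb to the nearest 8 h-only, 24 h-only or dark-only site (x axis), for 8 h over dark (left) and 8 h over 24 h (right), with the quartiles shaded for 8 h-only sites. Next to 8 h-only sites the medians are 1.24 and 1.11, and beyond 50 kb they are 1.04 and 1.00.

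Chromosome 3 held 243 of the members, 19.5% of them (17.4 to 21.8%) against 13.5% of all sites. Among sites called at 8 h and 24 h but not in the dark its share was 17.0% (14.2 to 20.2%), with overlapping intervals. Members made up 5.38% of its sites (4.76 to 6.08%), against 3.47% (3.27 to 3.69%) on all other chromosomes together and 2.48 to 4.24% on each of the other numbered ones. Chromosome 3 was singled out as the highest after these values were seen. The intervals of chromosome 1 (3.69 to 4.86%) and chromosome 2 (3.62 to 4.86%) overlapped its own. As a share of the sites called in both 8 h lists the members were 9.07% on chromosome 3 and 6.27% elsewhere. The 1 Mb window with most members was chr3:3000001-4000000, with 17 of its 108 sites. The IAA share of the members on chromosome 3, 28.4%, was close to that of the whole set, and without chromosome 3 the shares were 26.8% for IAA and 3.09% for ABA.

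Most members stood alone, but some lay in runs. When members at most 10 kb apart were joined, 984 were single and 261 lay in 114 runs, of which 90 held 2 members and 24 held 3 or more. Runs of other classes were not counted, so whether members cluster more than other sites was not tested. Of the 81 members in runs of 3 or more, 9 were called in both IAA lists (11.1%, 5.96 to 19.8%), against 29.1% (26.3 to 32.0%) of single ones. These 81 members lay in only 24 runs and are not independent, so the interval may be too narrow. With no runs of other classes to compare, the lower IAA share in runs cannot be called particular to the members. IAA peaks also entered the merging and could join close members to each other or to other sites, and the effect of this was not tested.

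The run with the most open sequence lay at chr3:26954788-26962625. Its 5 members covered 5274 of 7838 bp, no other site lay between them, and none was called in any list but those of 8 h. From left to right they held 16 and 17, 38 and 33, 24 and 24, 49 and 49, and 35 and 33 tags at 8 h, and they included the first and the third strongest of all members. The constitutive site to the left, at chr3:26951759-26952203, had 25 and 28 tags in the dark, 44 and 43 at 8 h, 37 and 36 at 24 h, 23 and 22 with ABA and 36 in each IAA list. It was thus open in every group and highest at 8 h in unscaled tags, while the stretch beside it was called at 8 h alone.

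The run with the most members, 6 over 11812 bp at chr12:5744812-5756623, looked different. Its members were low, between 16 and 24 tags, 4 other sites lay among them, and a single member, chr12:5756449-5756623, was also called in both IAA lists, with 19 tags in each. It held a pair of constitutive sites. The one at chr12:5751270-5751881 had 20 and 22 tags in the dark, 48 and 50 at 8 h, 40 and 38 at 24 h, 18 in each ABA list and 29 and 30 with IAA. The one at chr12:5753844-5754404 had 21 and 20 tags in the dark, 27 and 28 at 8 h, 18 in each 24 h list, no ABA call and 19 and 17 with IAA. Both were highest at 8 h in unscaled tags, while 24 h was above the dark at the first and below it at the second.

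**Figure D5:**
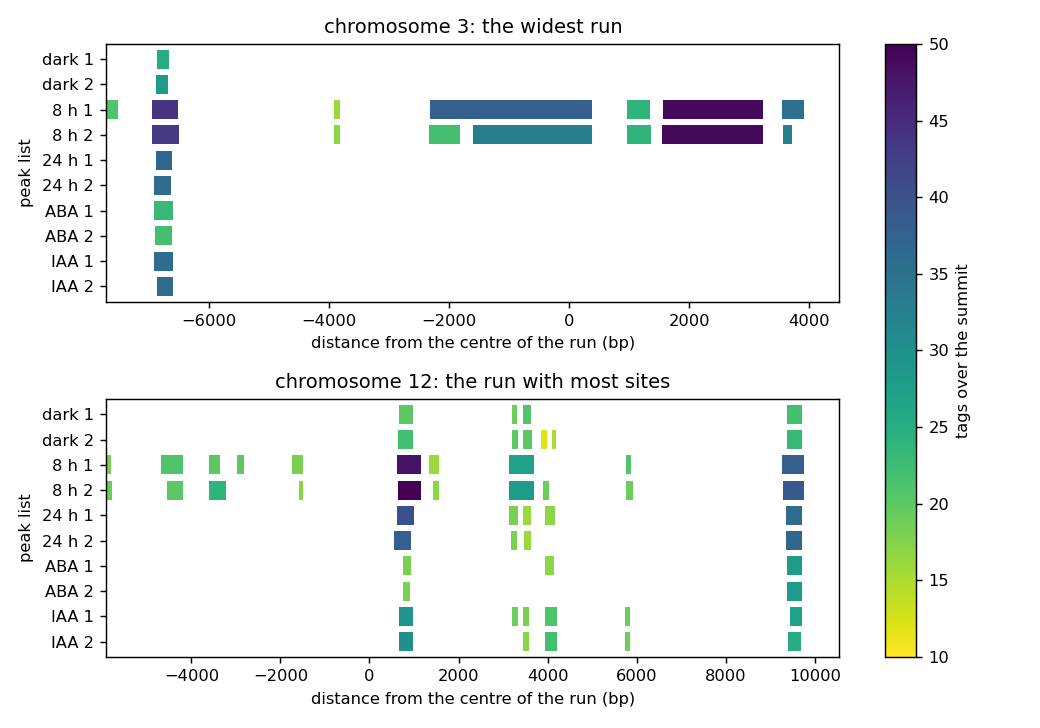
Peaks of each of the 10 lists (y axis) by distance in bp from the centre of the run (x axis), coloured by tags over the summit, for the run on chromosome 3 (upper) and the run on chromosome 12 (lower). On chromosome 3 the peaks of the run appear in the 8 h lists alone, beside a peak shared by all lists, and on chromosome 12 low 8 h peaks lie between peaks of other lists.

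Of the 6 members of 800 bp or more, 5 were broad in the 8 h lists themselves. Besides the 3 already named on chromosome 3, these were chr3:34771753-34772833, with 25 tags in each 8 h list, and chr9:20885047-20886028, with 26 and 28. None of the 5 was called in any hormone list. The remaining one was the merged site of chromosome 1 described with ABA, whose 8 h peak was 150 bp wide.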

How the data were processed

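Per the labels and methods, the authors aligned paired-end reads to MSU7.0 with Bowtie2 2.3.2, filtered them with SAMtools 1.9 and called peaks with MACS2, whose version is not given in the sources used here. No control and no shift for the Tn5 cut are described. The deposited lists give a fold (a ratio) over background at the summit, −log10 p-values, −log10 q-values and a score, and the score was not used. The peak totals of the study differ from those of the lists other than IAA.

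Whole-number tags and the local background of each peak were solved from the deposited fold and −log10 p-value under the Poisson model of the caller, and −log10 p was recovered to within 0.000203. The background was in even steps, which gave each relative library size, and its floor was 6.0005 steps in every list, as from a single background track scaled to each list. Fold, call limits and relative library size all rest on that track, whose origin is not described. Solving and merging were tested on simulated peaks. Shares have 95% Wilson intervals. The analysis used Python 3.11.15, pandas 2.3.3 and scipy 1.17.1. The sites named are the 12 of highest mean −log10 q at 8 h, the 3 highest of each of 4 hormone states, the 3 lowest members and the 3 highest sites that failed the rule by 1 list, with runs, broad sites and the ABA pair added after their values were seen. The members and lists were chosen with earlier results of these data known. Genes, promoters, GC content and sequences were not analysed here, since no genome of this build was used.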

Additional observations from a re-analysis of the deposited data

How the results depend on the processing

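The set and its shares were recomputed under 95 alternatives, and 75 left a count within 1.5 times its value or a share within its 95% interval. Some of the 75 could hardly move, such as the IAA share when an ABA list was left out, so the tally is no measure of robustness. With a −log10 q of at least 5 in the 8 h lists there were 594 sites, 33.2% were called with IAA and 37.0% had a site within 1 kb. All 594 were above the limits of dark and 24 h. The stricter threshold at 8 h largely fixed this, since those limits follow the lowest deposited −log10 p-value of each list. With that threshold in every list 33.3% had a site within 1 kb. With lists of equal length the shares were 21.5% for IAA, 15.1% for ABA and 20.8% within 1 kb. With sites merged over dark and light lists alone 41.0% had a neighbour. A call in either 8 h list gave 2054 sites, 1768 above the limits and 22.8% called with IAA, and a call in either IAA list gave 38.6%. A margin of 1.5 over the limits left 195 sites, and neighbours within 500 bp or 2 kb gave 31.2 and 58.7%. Without any 1 of the lists there were 1245 to 1810 sites, 1130 to 1564 above the limits, 23.1 to 34.2% for IAA, 2.54 to 3.77% for ABA and 42.7 to 45.1% within 1 kb. No list moved a value by over 1.5 times, but 4 of these 50 values, each an IAA share, fell outside the 95% interval. The alternative without chromosome 3 was chosen after seeing the data. No paired analysis was possible because the results come from no test. Alternatives for promoters and GC content were not run, for lack of a genome of this build. The limits to keep in mind are that each group is 1 sample and that the hormones cannot be told apart from the spray. A site with no call also has no value in a list, and the call limit, taken at the 8 h background, is only a guide to its tags.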
